A study of Homo sapiens with 11 samples.

Results

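The genes described here are the transcription factors of the epithelial-mesenchymal transition (EMT), SNAI1, SNAI2, TWIST1, ZEB1 and ZEB2, and 5 genes that oppose them in epithelial cells, GRHL2, OVOL1, OVOL2, ESRP1 and ESRP2. Of these 10 genes, 9 were read, each from 1 probe set whose platform annotation gives that symbol alone, out of 33616 genes read in that way. ESRP2 shares its probe set with MIR6773 and was not analysed here. Among the 16808 genes with the higher mean levels, which were kept for the tests, 7 of the 9 were present. SNAI1 and ZEB2 were too dim and were described by their levels only.

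During EMT, epithelial cells loosen their junctions and take on a motile, mesenchymal state. SNAI1, SNAI2, ZEB1 and ZEB2 are zinc finger repressors that bind E boxes in promoters such as that of the E-cadherin gene CDH1, and TWIST1 is a basic helix-loop-helix factor that drives the same programme. GRHL2 and the OVOL proteins hold down ZEB1 and keep junction genes active, the ESRP proteins keep epithelial exons in spliced mRNAs, and the miR-200 family silences ZEB1 and ZEB2 while being repressed by them.

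The RNA came from PC3, an established line of human prostate cancer cells derived from a metastasis in bone, measured on 11 Clariom D arrays with 1 array per condition. Cells were transfected with siHOXB13, siHOXA11 or siHOXA11-AS, each a mixture against 2 sequences of its target, or with the negative control siNC, and collected after 24 h or 48 h. 3 more arrays of 48 h are titled shIBSP(1), shIBSP(2) and shNC, but other fields of their labels speak of siRNA, so the kind of RNA is not settled. The labels and the methods also give the siRNA concentration in different units. No source says that arrays came from separate cultures or experiments.

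HOXB13, the homeobox factor targeted by siHOXB13, checks the labels. Its log2 intensity was lowest on the siHOXB13 array of 24 h, at 8.09, and next lowest on the array labelled siNC at 48 h, at 8.52. The array labelled siHOXB13 at 48 h gave 10.36, and the values lay between 9.75 and 11.20 on the other 8 arrays. HOXB13 therefore goes against the labels of the siNC and siHOXB13 arrays of 48 h. They are named by their labels throughout, and every difference taken from them rests on labels in doubt. HOXA11-AS, the target of siHOXA11-AS, was 6.01 with it against 6.30 with siNC at 24 h, and 6.40 against 6.68 on the array labelled siNC at 48 h. With siHOXA11 it was 6.29 at 24 h and 6.25 at 48 h, so siHOXA11-AS gave the lowest value of its time at 24 h only. The keratins KRT8 and KRT18 and the adhesion protein EPCAM were bright on all arrays, with lowest values of 15.85, 12.91 and 15.35, and CTNNA1, which PC3 cells lack, stood between 2.72 and 4.03 against background medians of 3.26 to 3.32. Of the markers of other cell types, 4 of 6 measured for fibroblasts, 2 of 4 for leukocytes and 2 of 4 for endothelial cells were bright enough to be kept. COL1A1 (7.99 to 8.86), PTPRC (6.22 to 7.09) and VWF (6.34 to 7.06) were above background, whereas PDGFRB (3.71 to 4.70), LYZ (3.04 to 3.91) and CDH5 (3.06 to 3.50) were at or near it. The summed linear intensity of each list was lowest and highest at 395 (siNC, 24 h) and 658 (siHOXA11-AS, 48 h) for fibroblasts, 132 (siHOXB13, 24 h) and 215 (siHOXA11, 48 h) for leukocytes, and 142 (labelled siNC, 48 h) and 196 (shIBSP(2)) for endothelial cells. Their part in the results was not tested.

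The sequences targeted by the siHOXB13 mixture are shown because every comparison with HOXB13 depends on them. They come from the study's list of siRNAs, and HOXB13 lies on chromosome 17. Capitals mark the 13 bases that both targets of 23 bases share, so both siRNAs aimed at 1 stretch of the transcript.
siHOXB13 (1): ttcatgaattGAGCTAATTATGA
siHOXB13 (2): GAGCTAATTATGAataaatttgg

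RefSeq (GRCh38.p14) gave promoter windows of 300 bases around a start site, for ZEB1 (7 windows) and ZEB2 (1 window). ZEB1 is shown because it is the member whose level stood highest on the arrays lowest in HOXB13. Capitals mark CACCTG or its reverse complement CAGGTG, the E box that SNAI and ZEB proteins recognise, and CAATAAA or TTTATTG, a core of HOXB13 sites. No motif overlapped another in the windows printed. An E box of this kind was found in 2 of the 7 ZEB1 windows and in 20.6% of all 35116 promoter windows of that length, and CAATAAA in 2 of 7 and in 4.0%. The 7 windows belong to 1 gene. By gene, 24.1% of 27305 genes had this E box in a window and 4.93% had CAATAAA. The ZEB2 window held neither, and a match in letters is not a binding site. The first window printed is the one with most E boxes (3), at chr10:31318966-31319265, plus strand, and the second the first with CAATAAA, at chr10:31320304-31320603, plus strand.
ZEB1, window with 3 E boxes: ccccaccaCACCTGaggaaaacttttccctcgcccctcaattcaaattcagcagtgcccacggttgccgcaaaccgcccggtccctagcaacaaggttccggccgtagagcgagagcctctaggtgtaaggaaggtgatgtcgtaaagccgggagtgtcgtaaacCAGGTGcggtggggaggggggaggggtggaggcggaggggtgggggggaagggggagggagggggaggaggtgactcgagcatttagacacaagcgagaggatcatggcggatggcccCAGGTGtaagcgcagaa
ZEB1, first window with CAATAAA: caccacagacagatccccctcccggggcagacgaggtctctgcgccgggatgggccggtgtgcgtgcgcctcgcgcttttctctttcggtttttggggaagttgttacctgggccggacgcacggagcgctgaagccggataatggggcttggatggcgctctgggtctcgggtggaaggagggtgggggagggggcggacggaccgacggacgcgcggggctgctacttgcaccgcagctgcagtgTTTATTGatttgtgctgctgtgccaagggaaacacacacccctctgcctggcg

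SNAI2, the repressor also called Slug, varied most. At 24 h its log2 intensity was 12.57 with siHOXB13, 12.54 with siHOXA11 and 12.35 with siHOXA11-AS, against 10.81 with siNC. At 48 h the array labelled siHOXB13 gave 8.30, siHOXA11 10.87 and siHOXA11-AS 11.01, against 11.42 on the array labelled siNC. It was 11.32 with shIBSP(1) and 11.82 with shIBSP(2), against 11.41 with shNC. The 3 knockdown arrays of 24 h lay together above every other array, and the array labelled siHOXB13 at 48 h lay below all others by more than the whole spread of the remaining 48 h arrays. The range over 11 arrays was 4.27 on the log2 scale, larger than for 99.6% of the genes kept, whose median range was 1.23. The difference between the 2 shIBSP arrays, the only arrays of 1 target at 1 time, was 0.50 for SNAI2, against a median of 0.26 over the genes kept. The study's siIBSP (1) and siIBSP (2) target different sequences. The gap between these arrays may thus hold a difference between constructs and is not one between known replicates.

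ZEB1, the repressor that GRHL2, OVOL and miR-200 hold in check, was 7.44 with siHOXB13, 6.74 with siHOXA11 and 6.10 with siHOXA11-AS, against 5.76 with siNC, at 24 h. At 48 h the array labelled siHOXB13 gave 6.72, siHOXA11 7.22 and siHOXA11-AS 6.30, against 7.51 on the array labelled siNC. It was 7.11 with shIBSP(1) and 6.90 with shIBSP(2), against 6.58 with shNC. Its highest values were thus on the 2 arrays with the lowest HOXB13, the siHOXB13 array of 24 h and the array labelled siNC at 48 h. Of the 16807 other genes kept, 2.77% had their 2 highest arrays there and 1.7% their 2 lowest, and ZEB1 was the 1 of 7 members with this order. Its range of 1.75 exceeded that of 80.4% of the genes kept.

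The other EMT factors were dim. TWIST1 ranged between 4.60 (siNC, 24 h) and 5.76 (siHOXA11, 48 h) with a median of 4.95. The next highest TWIST1 value was 5.23, with siHOXB13 at 24 h. SNAI1, the repressor also called Snail, ranged between 4.01 and 5.11 with a median of 4.49 and was at least 0.72 above the background median of its array. ZEB2 ranged between 3.48 and 4.13 with a median of 3.77, and its smallest distance from the background median was 0.18. Between the 2 shIBSP arrays the gap was 0.79 for SNAI1, close to the 95th percentile of 0.85 over the genes kept, 0.18 for TWIST1 and 0.04 for ZEB2. The gap of SNAI1 was thus a large share of its whole range of 1.10. In such bulk RNA, fewer cells that express a gene and less RNA per cell cannot be told apart.

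**Figure D1:**
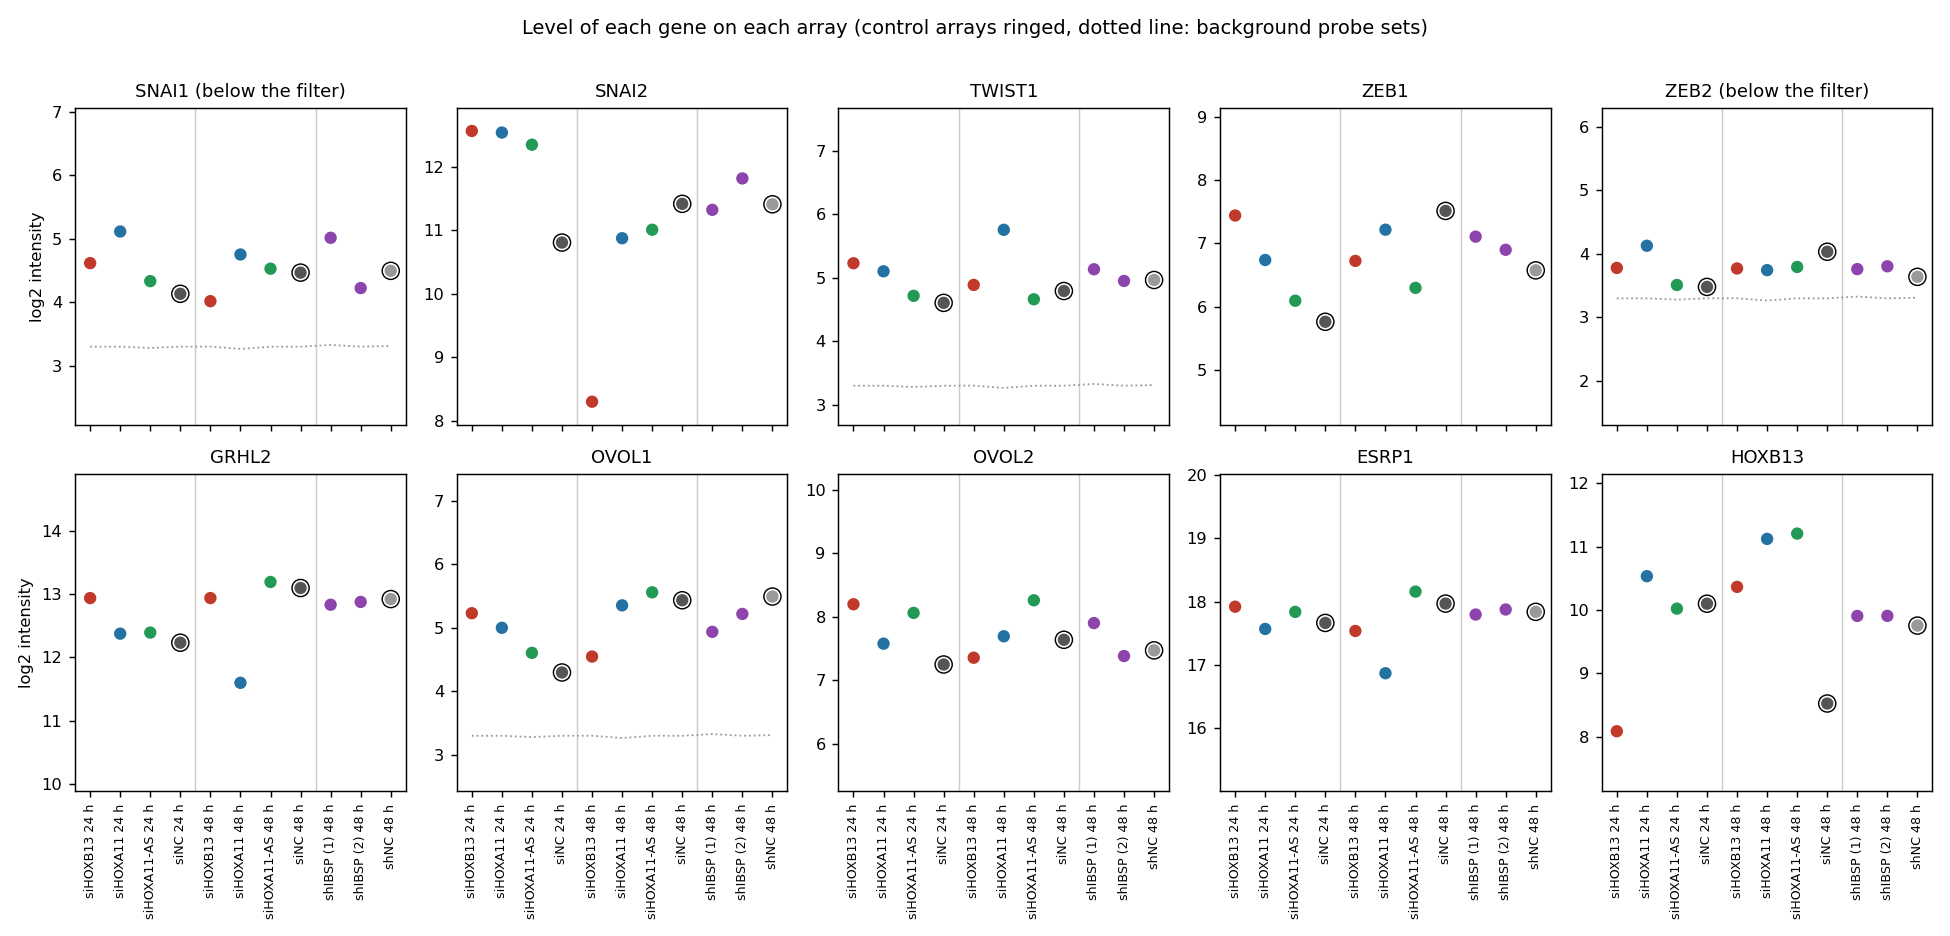
Log2 intensity (y axis, 5 log2 units high in each panel) of the 9 genes and HOXB13 on each of the 11 arrays (x axis), knockdown arrays left of their ringed control array. SNAI2 reaches 8.30 on the array labelled siHOXB13 at 48 h, and HOXB13 is low on the siHOXB13 array of 24 h and the array labelled siNC at 48 h.

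The opponents GRHL2 and ESRP1 were among the brightest genes. GRHL2, an activator of epithelial junction genes, was 12.94 with siHOXB13, 12.37 with siHOXA11 and 12.39 with siHOXA11-AS, against 12.23 with siNC, at 24 h. At 48 h the array labelled siHOXB13 gave 12.94, siHOXA11 11.60 and siHOXA11-AS 13.19, against 13.09 on the array labelled siNC. It was 12.83 with shIBSP(1) and 12.88 with shIBSP(2), against 12.92 with shNC. GRHL2 was lowest on the siHOXA11 array of 48 h, and the siHOXB13-labelled arrays of both times did not stand below the rest.

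ESRP1, the splicing regulator of epithelial exons, was 17.92 with siHOXB13, 17.57 with siHOXA11 and 17.84 with siHOXA11-AS, against 17.66 with siNC, at 24 h. At 48 h the array labelled siHOXB13 gave 17.54, siHOXA11 16.87 and siHOXA11-AS 18.16, against 17.97 on the array labelled siNC. It was 17.79 with shIBSP(1) and 17.87 with shIBSP(2), against 17.84 with shNC. Like GRHL2, ESRP1 had its lowest value on the siHOXA11 array of 48 h, which was the lowest array for 25.8% of the genes kept, and its highest on the siHOXA11-AS array of 48 h. Its mean level was higher than that of 99.6% of all genes read.

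OVOL2, a zinc finger repressor of ZEB1, ranged between 7.25 (siNC, 24 h) and 8.26 (siHOXA11-AS, 48 h), with 8.20 on the siHOXB13 array of 24 h and 7.36 at 48 h on the array with the siHOXB13 label. OVOL1, its paralog, ranged between 4.30 (siNC, 24 h) and 5.56 (siHOXA11-AS, 48 h) and came within 1.00 of the background. Both were lowest on the siNC array of 24 h. That array was the lowest of the 11 for 5 of the 9 genes (TWIST1, ZEB1, ZEB2, OVOL1 and OVOL2) and for 12.5% of the genes kept. The siHOXA11-AS array of 48 h was the highest for 4 of the 9 (GRHL2, OVOL1, OVOL2 and ESRP1) and for 13.2% of the genes kept.

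Each knockdown array was then set against the control array of its time. A difference of at least 1 on the log2 scale was counted as 2-fold, with no test because each condition had 1 array, and the control array is shared by the comparisons of its time. At 24 h, 2 of the 9 genes were at least 2-fold higher with siHOXB13 than with siNC, SNAI2 by 1.76 and ZEB1 by 1.68, where 5.68% of the genes kept differed 2-fold in either direction. OVOL2 (0.95) and OVOL1 (0.93) came just under the limit, and the median of the 7 members kept was 0.93 against 0.18 over all genes kept. Both genes over the limit were EMT factors, and no opponent passed it. With every array centred on its median, the median over all genes kept was -0.03 in this comparison.

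With siHOXA11 at 24 h, 1 of the 9 genes was 2-fold different, SNAI2 by 1.73, against 4.66% of the genes kept. SNAI1 (0.98) and ZEB1 (0.97) came next. With siHOXA11-AS at 24 h, SNAI2 alone of the 9 was 2-fold different, by 1.54, against 5.66% of the genes kept, and OVOL2 followed with 0.81. The 3 differences of SNAI2 at 24 h share 1 siNC array, where SNAI2 stood at its second lowest level.

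At 48 h, 1 of the 9 genes was 2-fold different on the array labelled siHOXB13 against the array labelled siNC, SNAI2 by -3.12, where 9.85% of the genes kept differed. OVOL1 followed with -0.89 and ZEB1 with -0.79. More genes differed with siHOXA11 at 48 h, with 17.1% of the genes kept at least 2-fold different from the array labelled siNC and 2224 of those 2879 genes lower. Here 2 of the 9 genes were 2-fold lower, GRHL2 by -1.49 and ESRP1 by -1.10, while TWIST1 was 0.97 higher. The calls depended on the scaling and the control. With every array centred on its median, where the median over all genes kept was 0.07 and not -0.14, GRHL2 was at -1.29, ESRP1 at -0.89 and TWIST1 at 1.17. With quantile normalization GRHL2 was at -1.11 and ESRP1 at -0.75. Set against the siNC array of 24 h, GRHL2 was at -0.63 and ESRP1 at -0.79, neither of them 2-fold. The 3 genes over the limit were then TWIST1 (1.15), ZEB1 (1.45) and OVOL1 (1.06), all higher. In that comparison 16.4% of the genes kept differed 2-fold, with 1125 of those 2760 genes higher. With siHOXA11-AS at 48 h, ZEB1 alone was 2-fold different, by -1.21, against 5.73% of the genes kept. Set against the siNC array of 24 h, ZEB1 was 0.54 higher on that array, so the direction depends on the control array used.

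With shIBSP(1) and shIBSP(2), 0 of the 9 genes were 2-fold different from shNC, where 2.11% and 5.85% of the genes kept were. The largest member differences were -0.56 for OVOL1 and 0.53 for ZEB1, both with shIBSP(1). SNAI2 differed by -0.09 and 0.41 on these arrays.

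**Figure D2:**
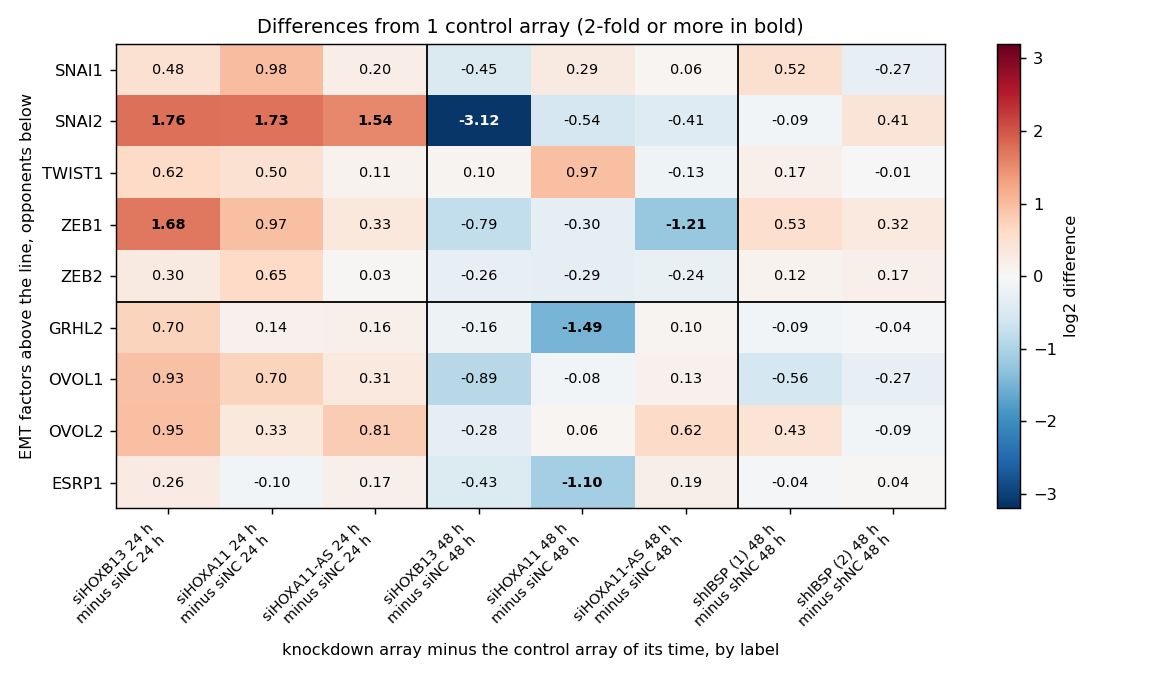
Log2 difference (colour and printed value) of the 9 genes (rows, EMT factors above the line and opponents below) on each knockdown array minus the control array of its time (columns, by label). SNAI2 is above 1 in the 3 columns of 24 h and at -3.12 in the siHOXB13 column of 48 h.

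Differences shared by 24 h and 48 h were tested by fitting limma to the 8 siRNA arrays with terms for the siRNA and the time, and Benjamini-Hochberg adjustment over all 16808 genes. For siHOXB13 against siNC, 0 of the 7 members were called, and 0.0% of all genes. For siHOXA11 and siHOXA11-AS against siNC, 0 of 7 were called as well, again with 0.0% of all genes in each. Without adjustment, p was under 0.05 for 170 genes with siHOXB13, 618 with siHOXA11 and 672 with siHOXA11-AS, and for no member. The methods' t-test was run on the same values, with the arrays of 24 h and 48 h taken as replicates of an siRNA and no time term. It also called 0 genes after adjustment, with 445, 586 and 973 under the unadjusted limit. Over both times, limma put SNAI2 at -0.68 with siHOXB13 (standard error 0.89, adjusted p = 1.00) and ZEB1 at 0.44 (standard error 0.51, adjusted p = 1.00). These estimates average differences of opposite sign at 24 h and 48 h. Without the siNC and siHOXB13 arrays of 48 h they were 1.76 for SNAI2 and 1.68 for ZEB1, which is the 24 h difference alone.

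For siHOXA11 over both times, the members with the largest values were TWIST1 at 0.73 (standard error 0.34), GRHL2 at -0.68 (standard error 0.43) and ESRP1 at -0.60 (standard error 0.36), each with a limma adjusted p of 0.98. For siHOXA11-AS, OVOL2 was at 0.72 (standard error 0.37, adjusted p = 1.00), SNAI2 at 0.57 (standard error 0.89, adjusted p = 1.00) and ZEB1 at -0.44 (standard error 0.51, adjusted p = 1.00).

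Between the times, SNAI2 averaged 10.40 ± 1.42 on the 48 h siRNA arrays and 12.07 ± 0.85 on those of 24 h (SD, n = 4 each), with the range of each time overlapping the other only through the siNC array of 24 h. Limma gave a difference of -1.67 (standard error 0.63, adjusted p = 0.70), with 0 of 7 members called and 0.0% of all genes, and 1180 genes under an unadjusted p of 0.05, SNAI2 among them. Leaving out either siHOXB13 array reduced the difference to -0.80, and leaving out either siNC array raised its size to -2.43. ZEB1 (0.43) and OVOL1 (0.44) were higher at 48 h and were not called. For shIBSP against shNC, fitted on all 11 arrays, 0 of 7 members and 0.0% of all genes were called, with 427 genes and no member under the unadjusted limit, and the largest member values were 0.43 for ZEB1 (standard error 0.58) and -0.42 for OVOL1 (standard error 0.51).

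Because 2 labels are in doubt, the genes were also set beside the HOXB13 signal of the same array without the treatment labels. A limma slope was fitted on all 11 arrays with time and the sh arrays as terms, for all 16807 genes kept other than HOXB13. It called 0 of the 7 members and 0.0% of all genes at an adjusted p under 0.05, and 806 genes, or 4.80%, had an unadjusted p under 0.05, ZEB1 among them. ZEB1 had a slope of -0.37 (standard error 0.14, adjusted p = 1.00), GRHL2 of -0.26 (standard error 0.14), SNAI2 of -0.22 (standard error 0.29) and ESRP1 of -0.14 (standard error 0.12), in log2 units per log2 unit of HOXB13. OVOL1 (-0.10), OVOL2 (-0.04) and TWIST1 (0.02) had slopes within their standard errors of 0. Thus 6 of 7 members had negative slopes, as did 57.7% of all genes, and the members' median was -0.14 against -0.02 over all genes.

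Of the 6 negative slopes, 4 rested on 2 arrays. Without the siHOXB13 array of 24 h and the array labelled siNC at 48 h, the slope of ZEB1 was 0.44 (standard error 0.50), that of SNAI2 2.81 (standard error 0.64), that of OVOL1 1.03 (standard error 0.39) and that of OVOL2 0.53 (standard error 0.47). GRHL2 was at -0.36 (standard error 0.57) and ESRP1 at -0.04 (standard error 0.49), both within 1 standard error of 0. The 48 h siRNA arrays left in that fit gave SNAI2 8.30 (labelled siHOXB13), 10.87 (siHOXA11) and 11.01 (siHOXA11-AS). Their HOXB13 was 10.36, 11.12 and 11.20. No slope was fitted without the array labelled siHOXB13 at 48 h as well, so the part of that array in the slope of SNAI2 was not tested. Leaving out 1 array at a time kept the slope of ZEB1 between -0.46 and -0.23, the smallest without the siHOXB13 array of 24 h. Within the 4 siRNA arrays of 24 h alone the ZEB1 slope was -0.49, and within those of 48 h alone -0.30. Both of these subsets were added after the data had been seen, and each holds 1 array with low HOXB13.

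**Figure D3:**
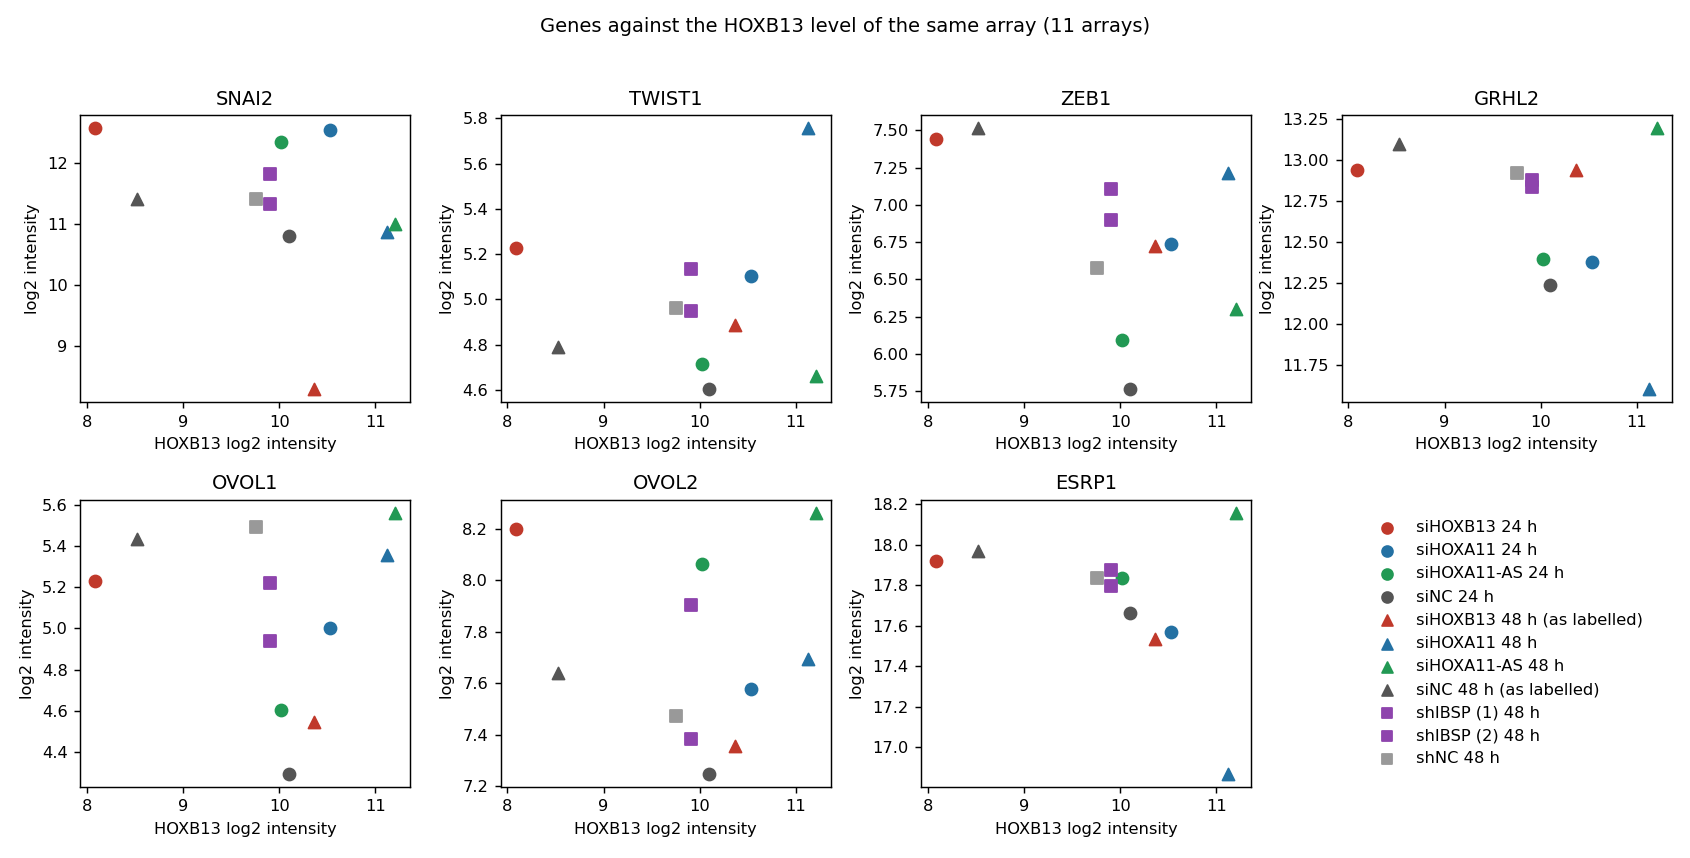
Log2 intensity of the 7 members kept (y axis) against the HOXB13 log2 intensity of the same array (x axis), with circles for 24 h, triangles for 48 h and squares for the sh arrays. ZEB1 is highest at the 2 lowest HOXB13 levels (8.09 and 8.52) and spread between 5.76 and 7.22 elsewhere.

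**Figure D4:**
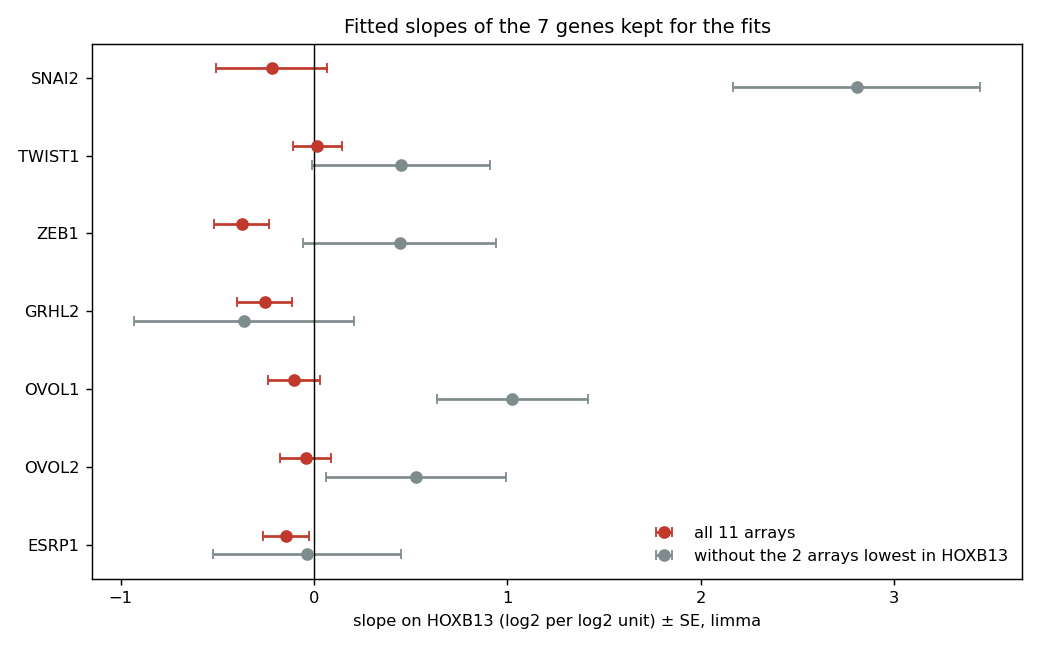
Limma slope on HOXB13 (x axis, log2 units per log2 unit of HOXB13, bars 1 standard error) of the 7 members kept, from all 11 arrays and without the 2 arrays lowest in HOXB13. SNAI2, ZEB1, OVOL1 and OVOL2 change sign between the fits.

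Across the 11 arrays, which share cell line, platform and control arrays, the members did not move as 2 opposed blocks. GRHL2 and ESRP1 had a Pearson r of 0.86 (n = 11 arrays), higher than 98.2% of genes gave with ESRP1. TWIST1 had an r of -0.73 with ESRP1 and -0.53 with GRHL2. The siHOXA11 array of 48 h held the highest TWIST1 (5.76) and the lowest ESRP1 (16.87) and GRHL2 (11.60). It was the lowest array for 25.8% of the genes kept, and r was not computed without it. ZEB1, which GRHL2 represses, had an r of 0.16 with GRHL2 and 0.55 with OVOL1, and 0.63 with TWIST1. SNAI2 had values between -0.07 and 0.42 with every other member kept. These are descriptions and were not tested.

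The genes whose levels were most like SNAI2 over the 11 arrays were ATP2C2 (r = 0.97), a secretory pathway calcium pump, PPP1R13L (0.97), an inhibitor of p53, CARM1 (0.95), an arginine methyltransferase, RUNX1 (0.95), a runt transcription factor, and PLEK2 (0.95). Their ranges, between 1.49 and 2.41, were smaller than that of SNAI2. The genes most like GRHL2 were RPL12P4 (0.96), GAREM1 (0.96), the ribosomal protein gene RPL12 (0.96), TANK (0.96) and POPDC3 (0.95). RPL12P4 is a pseudogene of RPL12, and their probe sets may measure the same RNA.

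The epithelial targets of the repressors were measured for 22 of 23 listed genes, all kept. None had a slope on HOXB13 that limma called, 15 of 22 slopes were negative, and the median slope was -0.02. Over all genes, beside which this and each later list is to be read, 57.7% of slopes were negative, with a median of -0.02. One of the 22, MAL2, had the highest value of its array on every array, as did 16 genes kept in all, and without it 14 of 21 slopes were negative. CDH1, the classic target, ranged between 10.56 (siNC, 24 h) and 14.52 (shNC). At 24 h CDH1 was 13.49 with siHOXB13, 13.76 with siHOXA11 and 11.73 with siHOXA11-AS, against 10.56 with siNC. At 48 h the array labelled siHOXB13 gave 11.35, siHOXA11 13.98 and siHOXA11-AS 11.81, against 13.40 on the array labelled siNC. CDH1 was low on the siNC array of 24 h and the siHOXB13-labelled array of 48 h, the arrays with the lowest SNAI2. It was low too with siHOXA11-AS at 24 h, where SNAI2 was high (12.35). On the siHOXA11 array of 48 h SNAI2 was 10.87, close to its 10.81 with siNC at 24 h, whereas CDH1 was 13.98. Of the 22 targets, 11 were lowest on the siHOXA11 array of 48 h and 2 were highest on it, where 25.8% of all genes kept were lowest and 12.6% highest. KRT19 (14.81 to 17.03), KRT18 (12.91 to 15.22) and CDS1 (8.01 to 9.96) were among those with their lowest values there, as was the claudin CLDN4 (14.67), whereas the claudin CLDN3 was highest there (8.30).

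Of 18 mesenchymal genes, 13 were kept, with 10 negative slopes, a median of -0.06 and none called. The intermediate filament gene VIM ranged between 11.65 and 12.99 and the receptor tyrosine kinase AXL between 10.75 and 12.61, both lowest on the array labelled siHOXB13 at 48 h. CDH11 was 8.90 on both the siHOXA11 and the siHOXB13-labelled arrays of 48 h, its lowest values, TNC was lowest (7.14) with siNC at 24 h, and TAGLN had a slope of 0.16 (standard error 0.10). COL5A1, below the filter, lay between 3.75 and 5.52. In the siHOXB13-labelled array of 48 h, 4 of the 13 were 2-fold lower than in the one labelled siNC, with a list median of -0.59 against -0.03 over all genes kept, of which 4.62% were 2-fold lower. Set against the siNC array of 24 h, 1 of the 13 was 2-fold lower, with a list median of -0.01. Over all genes kept, 1.25% were 2-fold lower there, with a median of 0.11. On the siHOXB13 array of 24 h, 1 of 13 was 2-fold higher than with siNC, and 0 after median centring. Of all genes kept, 4.58% and 2.12% were 2-fold higher under these 24 h settings, in that order.

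Other EMT-promoting factors numbered 10 kept of 15 listed, 2 with negative slopes and none called. TCF4 ranged between 5.96 and 7.99, YAP1 between 8.20 and 10.15, WWTR1 between 7.72 and 9.81 and SOX9 between 12.43 and 14.22. TWIST2 and SNAI3, paralogs of members, had slopes of -0.21 (standard error 0.10) and 0.10 (standard error 0.10). Other epithelial factors numbered 7 kept of 13, 3 with negative slopes and none called. KLF5 (12.17 to 14.92) and EHF (10.04 to 12.67) were highest with shNC, ELF3 ranged between 4.30 and 6.12, and GRHL1, FOXA1 and FOXA2 had slopes of 0.13, 0.08 and 0.21.

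In the transforming growth factor beta pathway, which induces these factors, 12 of 14 genes were kept, 6 with negative slopes, none called and a median slope of -0.00. The receptor TGFBR2 had a slope of -0.27 (standard error 0.12) and the inhibitor SKIL one of -0.27 (standard error 0.12), and the ligand BMP4 one of 0.29 (standard error 0.18). The ligands TGFB1 (9.48 to 11.24) and TGFB3 (5.60 to 8.10) and the receptor TGFBR1 (7.26 to 9.70) were the others with wide ranges. TGFB1, TGFBR1, TGFBR3 and the SNAI2 probe set were lowest on the array labelled siHOXB13 at 48 h, where 11.1% of the genes kept were lowest. Of the 12 pathway genes kept, 4 were lowest on the siHOXA11 array of 48 h, where 25.8% of the genes kept were. Among corepressors and genes that control turnover of the factors, 10 of 15 were kept, 9 with negative slopes and none called. The kinase gene GSK3B had a slope of -0.21 (standard error 0.10), HDAC1 of -0.14, CTBP2 of -0.15 and FBXO11 of -0.17. FBXL14, whose product targets these factors for degradation, ranged between 8.35 and 10.71 and was lowest on the array labelled siHOXB13 at 48 h. CTBP1 lay between 9.78 and 11.46 and HDAC2 between 12.35 and 14.09.

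The splicing regulators that act on exons like those of the ESRP proteins were kept for 8 of 9 genes, all 8 with negative slopes and none called, with a median of -0.19. Of all genes, 57.7% had negative slopes, with a median of -0.02. The siHOXA11 array of 48 h, with a HOXB13 of 11.12, was the lowest for 6 of the 8 and for 25.8% of the genes kept. On the siHOXA11 array of 48 h, 7 of the 8 were 2-fold lower than on the array labelled siNC, with a list median of -1.11 against -0.14 over all genes kept, of which 13.2% were 2-fold lower. Most of these lay just past the limit. The count was 1, MBNL1, with median centring (list median -0.91 against 0.07) and with quantile normalization, and 3 against the siNC array of 24 h. Of all genes kept, 9.2%, 10.3% and 9.73% were 2-fold lower under these settings, in that order. MBNL1 ranged between 12.44 and 14.73, CELF1 between 8.24 and 10.15, MBNL2 between 8.62 and 10.52 and RBFOX2 between 9.15 and 10.62. HNRNPM had a slope of -0.27 (standard error 0.11) and SRSF1 one of -0.20 (standard error 0.10).

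The miR-200 family is shown because it targets ZEB1 and ZEB2. The mature sequences, from RefSeq (GRCh38.p14), are printed with the seed, bases 2 to 8, in capitals. 3 members share the seed AAUACUG and 2 the seed AACACUG, which differ at 1 position.
miR-200b-3p: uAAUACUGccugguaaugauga
miR-200c-3p: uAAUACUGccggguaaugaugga
miR-429: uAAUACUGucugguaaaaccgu
miR-200a-3p: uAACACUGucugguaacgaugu
miR-141-3p: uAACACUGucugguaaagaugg

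The array reads the miRNA genes and not the mature RNAs. All 5 genes of the family were below the filter. MIR200B ranged between 4.19 and 5.09, MIR200C between 3.25 and 4.28, MIR141 between 3.17 and 4.02, MIR429 between 3.07 and 3.50 and MIR200A between 2.75 and 3.48. With background medians near 3.3, MIR200B alone stood clearly above it, and no comparison of these genes was made.

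Some array facts move beside these results. The median level of the genes kept lay between 7.19, on the siHOXA11 array of 48 h, and 7.58, with shNC. Over all probe sets, dim ones included, the siHOXA11 array of 48 h had the highest median, 4.26, against 4.12 to 4.18 on the other arrays. The 5 interferon response genes (IFIT1, MX1, OAS1, IFI44L and ISG15) were brighter on the sh arrays than on every siRNA array. MX1 was 19.54 with shNC, at most 16.52 (siHOXA11-AS, 48 h) among the siRNA arrays and 8.05 with siHOXA11 at 48 h. The summed linear intensity of these 5 genes was lowest on the siHOXA11 array of 48 h and highest with shNC. Of the mitochondrial transcripts, ND1, ND5 and COX1 had the highest value of the array on every array, at most 19.93, so they lay at the top of the scale and do not measure RNA quality. CYTB was near it, and ND2 ranged between 13.96 (labelled siNC, 48 h) and 15.06 (shNC). The part of these array differences in the results above was not tested.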

How the data were processed

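Clariom D arrays of PC3 cells were analysed, 11 in all and 1 per condition, grouped by their labels. The authors deposited 1 linear intensity per probe set, made with Affymetrix Expression Console according to the submitters' processing notes. Its version, normalization and genome build were not found in the sources read. Log2 was taken before any step, although log2 values had been assumed when the tests were planned. No further normalization was applied.

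Of 138745 probe sets, 36176 had 1 symbol. Each gene was read from the probe set with the highest mean, and genes with a mean above 4.9 on the log2 scale were kept. The members and lists were chosen with earlier results of these data known. Named are all members, HOXB13 and HOXA11-AS, up to 4 genes per list by slope on HOXB13 and up to 4 by range, and the 5 genes most like the most variable member of each role. Genes outside this rule were named for their role.

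limma 3.58.1 in R 4.3.3 (lmFit, eBayes) was run on all genes kept, with adjustment at 0.05 and 3 residual degrees of freedom for the siRNA arrays, 4 with the sh arrays and 7 for slopes. It was tested on simulated data. Since 1 array stands for each condition, its error is the disagreement between times and, in the fits with them, of the sh arrays, which may be technical and also holds true changes with time. The number of arrays limits the precision. Alternatives were no filter, quantile normalization, median centring, the mean of probe sets, an intensity trend, leaving out arrays, 1 fit of all arrays, other terms, other control arrays and the methods' unpaired t-test. Other steps used Python 3.11.15.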

Additional observations from a re-analysis of the deposited data

Results flagged for a closer look

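The differences of 3 genes from the control array had opposite signs at 24 h and 48 h and were at least 0.5 in size at both times. Each rests on 1 array and 1 control array per time, so the difference between the times was not tested. SNAI2 was 1.76 with siHOXB13 at 24 h and -3.12 with the array of that label at 48 h. ZEB1 was 1.68 and -0.79, and OVOL1 was 0.93 and -0.89, in the same comparisons. SNAI2 was also 1.73 with siHOXA11 at 24 h and -0.54 at 48 h. At 48 h these differences use the array labelled siNC, and those of siHOXB13 use both arrays with labels in doubt. Set against the siNC array of 24 h, the array labelled siHOXB13 at 48 h gave SNAI2 -2.51, ZEB1 0.96 and OVOL1 0.25. In the same way siHOXA11 at 48 h gave SNAI2 0.07. Except for SNAI2 with siHOXB13, the opposite signs thus depend on the control array used.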

How the results depend on the processing

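The count of members called by limma was 0 in each of the 6 tests under all 104 alternatives run, including leaving out each array (0 to 0). Over all genes, where limma called 0, it called 1 for 48 h over 24 h with all 11 arrays in 1 fit or with median centring. For the slope on HOXB13 it called 3 with median centring, 2 with quantile normalization, 9 without the siHOXA11 array of 48 h, 3 without the array labelled siHOXB13 at 48 h and 1 without the siHOXA11 or the siHOXA11-AS array of 24 h, none of them a member. The counts of members that were 2-fold different changed by over 1.5 times in 2 cases. For siHOXA11 at 48 h the count was 1 with quantile normalization (16.5% of the genes kept), against 2 (17.1%). It was 3 (16.4%) against the siNC array of 24 h, with none of the same genes. With the siNC array of 24 h as control, it was 2 for siHOXA11-AS at 48 h (10.0%), against 1 (5.73%). In these comparisons siHOXA11 at 48 h gave ZEB1 1.45 and OVOL1 1.06, and siHOXA11-AS at 48 h gave ZEB1 0.54, all with the sign turned. Without the 2 arrays lowest in HOXB13 the slopes turned to 0.44 for ZEB1, 2.81 for SNAI2, 1.03 for OVOL1 and 0.53 for OVOL2. That fit still held the array labelled siHOXB13 at 48 h, where SNAI2 was 8.30. The slope of OVOL2 was 0.13 in the 48 h siRNA arrays alone. That of TWIST1 was -0.15 in those of 24 h alone and -0.16 without the siNC and siHOXB13 arrays of 48 h. Without these 2 arrays SNAI2 was 1.76 for siHOXB13 over siNC.

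With 1 array left out, slopes ranged from -0.46 to -0.23 for ZEB1, -0.38 to -0.12 for GRHL2, -0.25 to -0.05 for ESRP1, -0.36 to 0.15 for SNAI2, -0.17 to 0.023 for OVOL1, -0.15 to 0.11 for OVOL2 and -0.10 to 0.17 for TWIST1. SNAI2 turned without the array labelled siNC at 48 h, OVOL1 and OVOL2 without the siHOXB13 array of 24 h, and TWIST1 without that siNC array or either siHOXA11 array. For siHOXB13 over siNC, SNAI2 ranged from -2.42 to 1.06 (positive without either the siNC or the siHOXB13 array of 48 h) and ZEB1 from -0.44 to 1.32 (negative without either the siNC or the siHOXB13 array of 24 h), and for 48 h over 24 h SNAI2 ranged from -2.43 to -0.80. The settings tried on the splicing and mesenchymal lists were chosen after seeing the data. The causes were not tested. The number of arrays and the closeness of SNAI1, ZEB2 and OVOL1 to background limit what can be seen.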
